A study of Mus musculus with 2 samples.

Results

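Toll-like receptors sense microbial products, and in fat they have been studied as sensors that link lipids and microbial products to macrophage inflammation. The genes examined here were 10 mouse genes fixed by name from this receptor system, out of 20330 genes in the deposited table. They were the surface receptors Tlr1, Tlr2, Tlr4 and Tlr6, the endosomal receptors Tlr7, Tlr8 and Tlr13, the lipopolysaccharide co-receptors Cd14 and Ly96, and the adaptor Myd88. All 10 were found in the table, and all 10 reached 1 FPKM in both libraries, where FPKM is the number of fragments scaled to transcript length and to the total of mapped fragments, so that levels can be compared between genes.

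RNA was sequenced from adipose tissue macrophages (ATM) of visceral fat, which had been sorted with antibodies against F4/80 and CD11b from C57BL/6 mice that began a high-fat diet at 4 weeks of age and received it for 12 weeks. The WT library came from hMRP8cre-;Hif-1αfl/fl;ApoE-/- mice and the KO library from hMRP8cre+;Hif-1αfl/fl;ApoE-/- mice, so both genotypes were labelled as null for ApoE and carried the floxed Hif-1α alleles, and only the KO mice carried the Cre recombinase that deletes them. The hMRP8 promoter that drives Cre is active in myeloid progenitors, neutrophils and monocytes, and is therefore not restricted to macrophages. There was 1 library per genotype, and the number of animals behind a library was not given in the sources used here.

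With 1 library per genotype, no difference below has a replicate error or a p-value, and each compares these libraries rather than the genotypes. Depth was estimated from the step between the lowest FPKM values as about 5870000 fragments in WT and 7470000 in KO, and the fragment numbers given below were derived from it and cover counting error only. The deleted gene, Hif1a, was at 30.4 FPKM in WT against 20.97 in KO over the whole gene, and the floxed exon was not analysed here. Apoe, for which both libraries are labelled null, was at 94.3 FPKM in WT against 117 in KO, and where in the gene these fragments lie was not analysed here. The sorting markers Adgre1, which encodes F4/80, and Itgam, which encodes CD11b, were above 100 FPKM in both libraries, and 10 of 11 macrophage markers were in the table. Of these 0 differed 3-fold, against 27.3% of all genes compared but 1.99% of genes at 100 to 1000 FPKM, where most of these markers lie. Past 2-fold Mertk was higher in KO (38.0 and 88.1 FPKM) and Fcgr1 lower (49.3 and 21.9 FPKM). Neutrophil markers summed to 197 FPKM in WT against 570 in KO over 10 genes, with Mmp8, Camp and Ltf at 0 in both, and all 7 that could be compared were higher in KO. S100a8 (73.3 and 182 FPKM) and S100a9 (63.4 and 301) carried most of both sums, whereas Mmp9 (38.3 and 48.9), Csf3r (15.5 and 24.1) and Cxcr2 (5.83 and 7.96) were nearer to level. Retnlg (0.385 and 2.46) and Ngp (0 and 2.61) were low in both libraries and higher in KO. S100a9 and Ngp passed 3-fold. Monocyte markers summed to 243 FPKM in WT against 146 in KO, where Ly6c2 and Chil3 were listed at 0. Dendritic cell markers summed to 162 and 176 FPKM, of which Cd209a made up 122 and 131, and the others went both ways. Zbtb46 (0 and 9.45 FPKM) and Siglech (1.42 and 8.31) passed 3-fold upward, Xcr1 was at 1.65 and 0.0588, Ccr7 was at 0 in KO only, Flt3 was at 0 in WT only and Clec9a was at 0 in both. All 5 T cell markers in the table were at 0. Eosinophil markers summed to 6.50 FPKM in WT against 33.1 in KO, where Ccr3 and Alox15 passed 3-fold and Siglecf, Epx and Prg2 were at 0 in both. Fibroblast markers summed to 43.2 FPKM in WT against 83.9 in KO, all 5 higher in KO and 2 of them, Col1a2 and Pdgfra, past 3-fold. Of the B cell markers, Cd79a was at 2.50 FPKM in WT against 0.222 in KO, Cd79b was at 0 in WT against 5.52 in KO, and Pax5 was at 0 in both. Of the adipocyte markers, Cidec was detected in WT only (5.83 FPKM) and Lep in KO only (1.6 FPKM), with Adipoq, Plin1 and Retn at 0 in both. Endothelial markers summed to 13.6 and 16.0 FPKM. The part that other cells play in the differences described below was not tested, and in bulk RNA fewer cells of a type and less RNA per cell cannot be told apart.

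Each Toll-like receptor recognises its ligand with an ectodomain of leucine-rich repeats and signals through a cytoplasmic TIR domain. TLR2 pairs with TLR1 or TLR6 to bind bacterial lipopeptides, and TLR4 binds lipopolysaccharide together with MD-2, the product of Ly96, after CD14 has delivered it. TLR7, TLR8 and TLR13 sit in endosomes, where TLR7 detects single-stranded RNA and TLR13 detects bacterial ribosomal RNA. Except for TLR3, these receptors signal through MYD88, which recruits IRAK kinases and leads to NF-κB activation.

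Tlr1 and Tlr6 lie next to each other on chromosome 5 and are close copies, and since they had the largest FPKM ratios of KO to WT in either direction among the members (0.299 and 3.52), their shared sequence is shown first. Over aligned coding bases their identity was 77.0%, against 64.5% for the next closest pair of receptors among the members. The likeness was concentrated in a single stretch, where 785 of 792 aligned bases were identical (99.1%), compared with 62.1% of the 1255 aligned bases before it and 81.0% of the 295 after it. The longest run identical in both genes had 229 bases and covered coding bases 1468 to 1696 of Tlr1 and 1507 to 1735 of Tlr6. It is printed in lower case because no base differs. A fragment of RNA that lies within this run cannot be assigned to either gene by its sequence.
Tlr1 and Tlr6 shared run: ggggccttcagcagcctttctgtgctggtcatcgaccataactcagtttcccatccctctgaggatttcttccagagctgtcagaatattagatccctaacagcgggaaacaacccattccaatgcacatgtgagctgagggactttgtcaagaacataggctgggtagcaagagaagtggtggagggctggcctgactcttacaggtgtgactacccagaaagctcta

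A block of 120 aligned bases near the start of the coding sequences shows how far the copies have diverged elsewhere. The block covers coding bases 63 to 182 of Tlr1 and 108 to 227 of Tlr6, and the 47 differing bases are in capitals.
Tlr1: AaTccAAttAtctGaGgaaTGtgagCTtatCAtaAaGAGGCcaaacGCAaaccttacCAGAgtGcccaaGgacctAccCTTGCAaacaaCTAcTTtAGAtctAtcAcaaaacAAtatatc
Tlr6: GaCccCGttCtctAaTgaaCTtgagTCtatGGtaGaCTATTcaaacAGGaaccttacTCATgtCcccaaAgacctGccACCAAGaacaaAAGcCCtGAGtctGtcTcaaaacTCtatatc

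Of all windows of 50 bases in the longest coding transcript, 454 were found in both genes, which was 15.3% of the windows of Tlr1 and 12.5% of those of Tlr6. Tlr2, Tlr4, Tlr7, Tlr8, Tlr13, Cd14 and Ly96 shared 0 such windows with the transcripts of any other gene on either strand. Myd88 shared 175 windows, 9.16% of its own, with Acaa1a, a gene of peroxisomal fatty acid oxidation that is annotated on the opposite strand and overlaps the first part of Myd88.

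**Figure D1:**
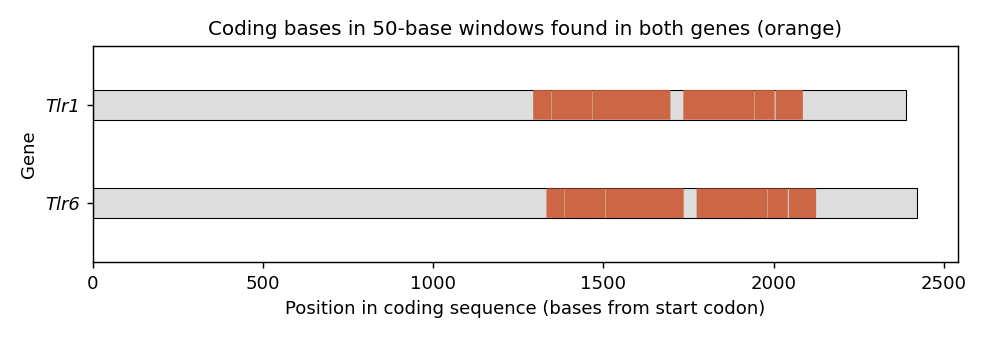
Coding sequences of Tlr1 (2388 bases) and Tlr6 (2421 bases), drawn to scale from the start codon, with the bases covered by 50-base windows present in both genes in orange. The shared windows lie between bases 1294 and 2085 of Tlr1 and between 1333 and 2124 of Tlr6, and the remainder of each gene holds no shared window of that length.

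Cd14 and Ly96, the co-receptors, were nearly level between the libraries. Cd14 was the highest of the 10 genes, at 1060 FPKM in WT against 1095 in KO, on about 10214 and 13419 estimated fragments, and ranked 89th and 76th among all genes. The difference was 0.05 on the log2(FPKM + 1) scale, KO minus WT, which is the scale of every difference given here, and it was 0.09 or 0.06 when the libraries were scaled to the same sum or to the same upper quartile. Ly96 was at 27.9 FPKM in WT against 25.6 in KO, a difference of -0.12, on about 104 and 121 fragments because its transcript is short. Both libraries thus held far more Cd14 than Ly96 transcript per length, by 38.0 times in WT and 42.8 times in KO.

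Among the surface receptors, Tlr2 was by far the highest and was level between the libraries. It was at 293 FPKM in WT against 295 in KO, a difference of 0.01, and made up 67.9% of the summed FPKM of the 7 member receptors in WT and 63.9% in KO. Tlr4, the lipopolysaccharide receptor, was at 8.62 FPKM in WT against 6.82 in KO, a difference of -0.30 on about 206 and 208 fragments. Its level was thus low beside its co-receptors, with 123 times as much Cd14 in WT and 161 times as much in KO, and 3.24 and 3.75 times as much Ly96.

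Tlr1 and Tlr6, the partners of Tlr2, exchanged their order. Tlr1 was at 4.95 FPKM in WT against 1.48 in KO, a difference of -1.26, on about 88.0 and 33.4 fragments. Tlr6 was at 2.28 FPKM in WT against 8.02 in KO, a difference of 1.46, on about 49.2 and 220 fragments. The ratio of Tlr6 to Tlr1 was thus 0.460 in WT and 5.42 in KO, whereas their sum was 7.23 FPKM in WT against 9.50 in KO. Taken as 1 gene they differed by 0.35, so the sign for Tlr1 was opposite to that of the sum. Both genes were low, and how the estimator divided fragments from their shared stretch was not tested.

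The endosomal receptors Tlr7 and Tlr8, which are neighbours on the X chromosome, also exchanged their order, but at higher levels and without shared windows. Tlr7 was at 78.9 FPKM in WT against 50.4 in KO, a difference of -0.64, on about 1804 and 1466 fragments. Tlr8 was at 34.2 FPKM in WT against 74.2 in KO, a difference of 1.09, on about 690 and 1901 fragments. The ratio of Tlr8 to Tlr7 was 0.434 in WT and 1.47 in KO, while their sum was 113 and 125 FPKM. Tlr13, also on the X chromosome, was at 9.63 FPKM in WT against 25.5 in KO, a difference of 1.32 on about 229 and 772 fragments. The 3 endosomal receptors together made up 28.4% of the summed FPKM of the member receptors in WT and 32.5% in KO.

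Myd88, the shared adaptor, was at 21.6 FPKM in WT against 54.6 in KO, a difference of 1.30 on about 249 and 799 fragments. Its antisense neighbour Acaa1a was at 18.3 FPKM in WT against 57.1 in KO, a difference of 1.59. The library protocol names no step that keeps strand, so fragments from the overlap of these genes cannot be told apart, and their share in either value was not tested.

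**Figure D2:**
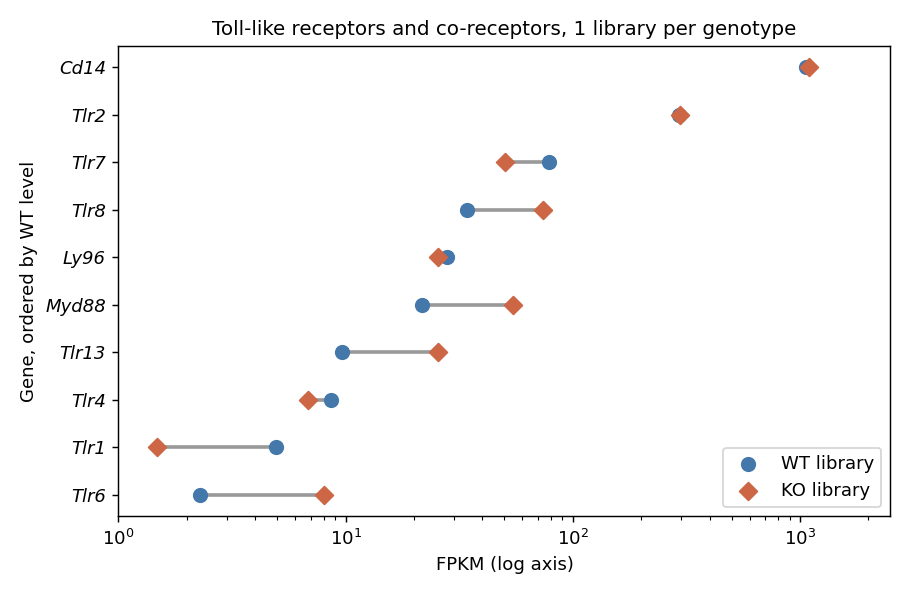
FPKM of the 10 genes in the WT library (blue circles) and the KO library (orange diamonds) on a log axis, ordered by WT level, with 1 library per genotype and therefore no error bars. Cd14 and Tlr2 overlap between the libraries at about 1060 to 1095 and 293 to 295 FPKM, whereas Tlr6, Tlr13, Myd88 and Tlr8 lie higher in KO and Tlr1 and Tlr7 lower.

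The order of levels in WT was Cd14, Tlr2, Tlr7, Tlr8, Ly96, Myd88, Tlr13, Tlr4, Tlr1 and Tlr6. In KO it was Cd14, Tlr2, Tlr8, Myd88, Tlr7, Ly96, Tlr13, Tlr6, Tlr4 and Tlr1. Ly96 and Tlr13 were at 25.6 and 25.5 FPKM in KO and did not differ in level there. The top pair and its distance from the rest were common to both libraries, and the order changed among the 8 lower genes.

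It was next asked how these differences compared with those of other genes. The study had compared its libraries at 3-fold and named no pseudocount. Here a difference of at least 3-fold on the log2(FPKM + 1) scale was used as the call. Of the 10297 genes that reached 1 FPKM in either library, 27.3% passed it, with 13.6% higher and 13.7% lower in KO, and 0 of the 10 members did. With a pseudocount of 0.1 in place of 1, Tlr6 passed 3-fold upward and Tlr1 downward, 2 of 10 members where 36.4% of all genes compared passed, 18.5% higher and 18.0% lower. The same pair passed with a pseudocount of 0.01, where 37.0% of all genes did, 18.8% higher and 18.2% lower. Of the 7586 genes that reached 1 FPKM in each library, as all 10 members did, 11.5% passed 3-fold with the pseudocount of 1, 5.66% higher and 5.89% lower. At 2-fold 4 members were higher in KO (Tlr6, Tlr13, Myd88 and Tlr8) and 1 was lower (Tlr1), that is 5 of 10, where 45.6% of all genes compared passed, 23.1% higher and 22.5% lower. The median over the 10 members was 0.03, and the median over all genes compared was also 0.03.

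The share of genes past a threshold depended strongly on level, so each member was set beside genes of similar mean FPKM. At 2 to 5 FPKM, where Tlr1 lies, 63.3% of genes differed at least 2-fold, and at 5 to 10 FPKM, where Tlr6 and Tlr4 lie, 49.6% did. The middle 90% of differences in the latter range ran from -3.60 to 3.64. For Tlr13, at 10 to 20 FPKM, the share past 2-fold was 38.9%, and for Myd88 and Ly96, at 20 to 50 FPKM, it was 26.8%. At 50 to 100 FPKM, the range of Tlr7 and Tlr8, 15.7% of genes passed 2-fold and the middle 90% ran from -1.37 to 1.13. The difference of Tlr8, at 1.09, was therefore close to the upper edge of genes at its level, and that of Tlr7, at -0.64, was well within it. At 100 to 1000 FPKM, where Tlr2 lies, 7.81% passed 2-fold, and at 1000 or more, where Cd14 lies, 7.37% did.

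**Figure D3:**
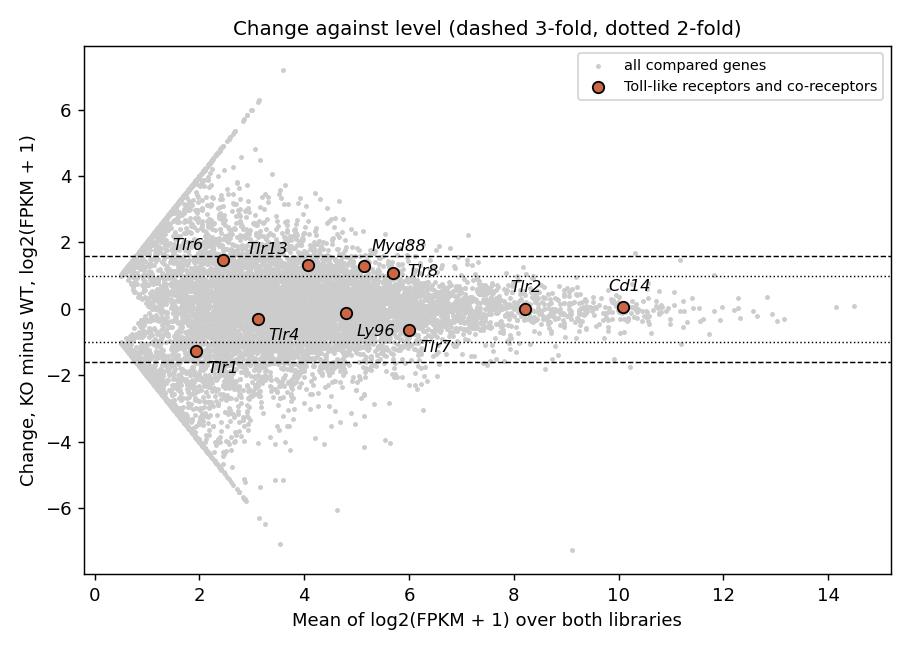
Difference between the libraries (KO minus WT, log2(FPKM + 1)) against mean level for the 10297 genes compared (grey) and the 10 members (orange, named), with the 3-fold threshold dashed and the 2-fold threshold dotted. All 10 members lie between the dashed lines, and the spread of the grey points is widest at 5 to 10 FPKM and narrows above that.

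Promoters are shown for Tlr8, Tlr13 and Myd88, which were higher in KO by at least 2-fold and have 1 annotated start each, and for Tlr2, which was level. Promoters of 6 of the 10 genes, from 250 bases before to 50 after the start, were taken from RefSeq (GRCm38.p6), and those of Tlr4, Tlr7, Cd14 and Ly96 were not analysed here. The motifs searched on both strands were GAGGAA for the myeloid factor PU.1, the hypoxia response element cores ACGTG and GCGTG, GGG and TTCC separated by 3 bases for NF-κB, and GAAA and GAAA separated by 2 bases for the interferon-stimulated response element. A CACGTG matches ACGTG on both strands, and matches of different motifs did not overlap in the promoters shown. Matches are in capitals.
Tlr2 promoter, chr3:83841559-83841858, minus strand: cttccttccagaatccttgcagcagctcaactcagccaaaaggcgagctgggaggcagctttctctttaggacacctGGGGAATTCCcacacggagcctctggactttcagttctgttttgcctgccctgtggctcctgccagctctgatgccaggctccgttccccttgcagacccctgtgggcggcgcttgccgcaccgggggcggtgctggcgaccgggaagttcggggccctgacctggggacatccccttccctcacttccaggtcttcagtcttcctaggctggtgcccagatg
Tlr8 promoter, chrX:167264280-167264579, minus strand: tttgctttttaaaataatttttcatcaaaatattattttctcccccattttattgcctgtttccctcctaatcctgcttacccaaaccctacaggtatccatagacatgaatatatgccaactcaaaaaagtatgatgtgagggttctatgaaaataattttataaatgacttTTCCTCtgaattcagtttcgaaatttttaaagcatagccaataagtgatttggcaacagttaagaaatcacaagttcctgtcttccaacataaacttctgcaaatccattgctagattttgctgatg
Tlr13 promoter, chrX:106143025-106143324, plus strand: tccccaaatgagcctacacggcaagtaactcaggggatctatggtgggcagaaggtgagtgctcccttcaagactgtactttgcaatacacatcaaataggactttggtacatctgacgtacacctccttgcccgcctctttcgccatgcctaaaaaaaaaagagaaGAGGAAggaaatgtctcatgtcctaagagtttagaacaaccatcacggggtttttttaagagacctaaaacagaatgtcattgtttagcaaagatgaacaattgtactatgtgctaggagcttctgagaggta
Myd88 promoter, chr9:119339969-119340268, minus strand: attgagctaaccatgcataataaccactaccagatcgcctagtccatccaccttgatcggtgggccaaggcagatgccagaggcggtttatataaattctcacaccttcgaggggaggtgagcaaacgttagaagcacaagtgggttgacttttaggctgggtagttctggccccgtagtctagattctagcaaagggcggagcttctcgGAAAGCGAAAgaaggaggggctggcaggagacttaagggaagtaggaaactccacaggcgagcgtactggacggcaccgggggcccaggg

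Tlr8 and Tlr13 each held 1 PU.1 match, which 28.3% of all 32851 promoters hold. Tlr2 held 1 NF-κB match, found in 5.56% of promoters, and Myd88 held 1 interferon-stimulated response element, found in 3.44%. The 4 promoters held 0 matches to the hypoxia cores, which 19.6% (ACGTG) and 32.4% (GCGTG) of promoters hold. Of the promoters not printed, those of Tlr6 held 1 NF-κB match at one start and 2 overlapping interferon-stimulated response elements at the other, and those of Tlr1 held 1 PU.1 match at one start and a CACGTG at the other. These are matches of letters within a short window and say nothing about binding.

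The other receptors of the family were Tlr3, Tlr5, Tlr9, Tlr11 and Tlr12, of which 3 passed the filter. Tlr3, the receptor for double-stranded RNA that signals without Myd88, was at 6.55 FPKM in WT against 0.727 in KO, a difference of -2.13 that passed 3-fold. Tlr5, the flagellin receptor, was at 21.3 FPKM in WT against 55.0 in KO, a difference of 1.33. Tlr9, which detects unmethylated CpG DNA, was at 36.8 FPKM in WT against 35.5 in KO. Tlr11 was at 0.364 FPKM in WT and listed at 0 in KO, and Tlr12 was listed at 0 in both. Over the 12 receptors FPKM summed to 497 in WT and 553 in KO.

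Of the accessory proteins, CD36, a co-receptor of TLR2 with TLR6 that also takes up fatty acids, was at 288 FPKM in WT against 418 in KO. Cd180 and Ly86, which encode a TLR4-like receptor and its MD-2-like partner, were at 44.6 and 25.5 FPKM and at 302 and 258 FPKM, respectively. Lbp, the lipopolysaccharide-binding protein, was listed at 0 in WT and was at 2.37 FPKM in KO, so that no fold is given. Among 7 genes for folding and trafficking, 1 passed 3-fold, Cnpy4, which was listed at 0 in WT and was at 11.1 FPKM in KO. Unc93b1, which carries TLR3 and the endosomal receptors out of the endoplasmic reticulum, was at 641 FPKM in WT against 573 in KO. Hsp90b1, the chaperone for most of these receptors, was at 138 and 169 FPKM.

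The remaining adaptors were mixed, with 2 higher and 2 lower in KO of the 4 compared, 0 past 3-fold and a median of -0.34, which became 0 when Sarm1 was kept without the filter. Tirap, which bridges TLR2 and TLR4 to MYD88, was at 1.95 FPKM in WT against 5.36 in KO, a difference of 1.11. Ticam1, which encodes the adaptor TRIF, was at 27.2 and 28.1 FPKM. Ticam2, which couples TLR4 to TRIF, was at 27.5 FPKM in WT against 10.8 in KO, a difference of -1.28. Pik3ap1, which encodes the adaptor BCAP, was at 29.4 and 17.3 FPKM, and Sarm1 was listed at 0 in both.

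Downstream of the adaptors, 0 of 21 kinases and ubiquitin enzymes passed 3-fold, and their median was 0.00, with 11 higher and 10 lower in KO. Traf6, the ubiquitin ligase that relays the MYD88 signal, was at 5.42 FPKM in WT against 17.1 in KO and was the only one past 2-fold, which 45.6% of all genes compared passed. The highest of this list by mean FPKM were Ube2v1, at 110 and 102 FPKM, and Map3k8, at 84.2 and 68.4. Of the 5 interferon regulatory factors 0 passed 3-fold, and their median was -0.30. Irf1 was at 114 FPKM in WT against 92.2 in KO, and Irf5, which acts with MYD88, was at 105 and 109.

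Of 12 inhibitors that could be compared, 1 passed 3-fold, with a list median of 0.16. This was Tnip1, a partner of the ubiquitin-editing enzyme A20, at 47.6 FPKM in WT against 13.1 in KO, a difference of -1.78. Dusp1, a phosphatase of MAP kinases, was the highest, at 1124 and 1313 FPKM. Tnfaip3, which encodes A20, was at 251 and 283 FPKM.

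Among 15 early target genes that could be compared, 11 were higher and 4 lower in KO, with a median of 0.21, and 3 passed 3-fold. Over all genes compared, 5280 were higher and 5017 lower, with a median of 0.03. Il6, a cytokine of acute inflammation, was at 1.41 FPKM in WT against 10.9 in KO, a difference of 2.30 on about 19.4 and 190 fragments. The chemokine Ccl5 was at 106 FPKM in WT against 24.7 in KO, a difference of -2.06, and Ptgs2, which encodes cyclooxygenase-2, was at 45.1 and 12.9, a difference of -1.73. Cxcl2 and Ccl3, the highest of the list by mean FPKM, were at 4416 and 1221 FPKM in WT and at 5549 and 1833 in KO. The shares past 3-fold in these lists stand beside the 27.3% of all compared genes, a share that falls with level. It was 11.7% at 20 to 50 FPKM, 4.95% at 50 to 100, 1.99% at 100 to 1000 and 3.16% at 1000 or more.

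**Figure D4:**
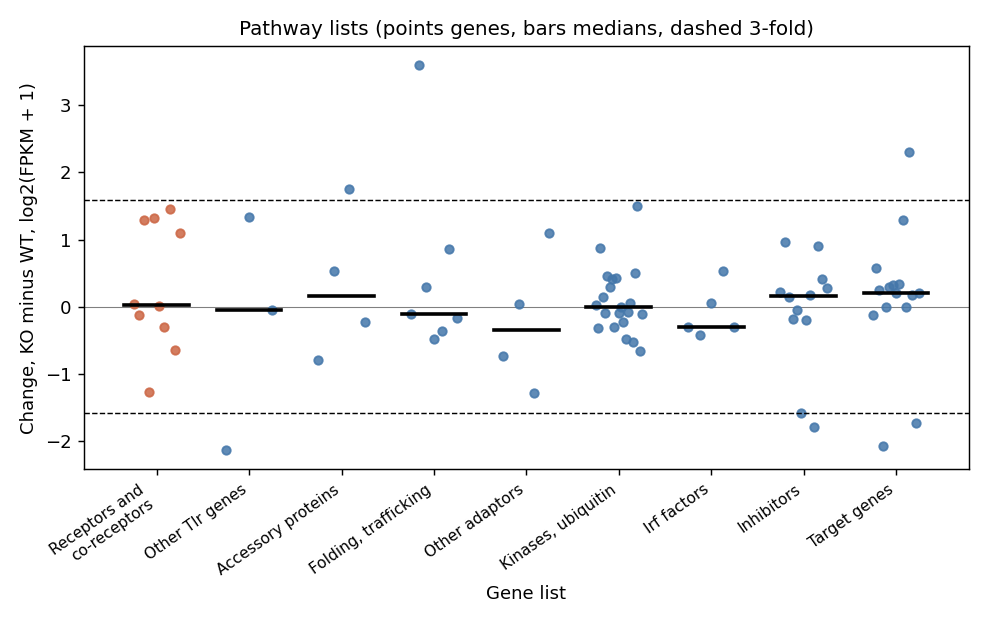
Difference between the libraries (KO minus WT, log2(FPKM + 1)) for each gene that passed the filter, by list, with the list median as a black bar and the 3-fold threshold dashed. The medians lie between -0.34 and 0.21, and the genes beyond the dashed lines are Tlr3, Lbp, Cnpy4, Tnip1, Il6, Ccl5 and Ptgs2.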

How the data were processed

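The authors deposited a single table of FPKM values per Ensembl gene, with a WT column and a mutant column. The latter was taken as the KO library because it is the only one that is not WT. The submitters' processing notes name CASAVA 1.8.2, TopHat2 2.0.9, Cufflinks 2.2.1 and build mm9, and the annotation and filters are not given in the sources used here. Of 20749 rows, 401 full repeats were dropped and 18 rows of an identifier already present were summed. Symbols, transcripts and coding parts came from GENCODE M21 (GRCm38).

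Levels were compared as log2(FPKM + 1), KO minus WT, where either library reached 1 FPKM. The pseudocount understates the difference of low genes. FPKM is not a count, so no count model was used and no p-value was computed. Fragments were estimated as FPKM times the length of the longest coding transcript in kilobases, divided by the lowest recurring step (0.170 in WT, 0.134 in KO) in genes with 1 transcript. Coding sequences were aligned with Biopython 1.88.

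The members and lists were chosen with earlier results of these data known. All genes of the receptor, accessory and adaptor lists were named, and from the other lists those past 3-fold and the 2 highest by mean FPKM. Traf6, Acaa1a, the single markers of cell types, and the cytosolic sensors and genes of the interleukin-1 receptor family in the closing section were named after their values had been seen. The calculation was tested on simulated data. Alternatives were pseudocounts of 0.1 and 0.01, no filter, 1 FPKM in each library, a 2-fold threshold, upper-quartile scaling, scaling to the same sum and the largest value of a repeated identifier.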

Additional observations from a re-analysis of the deposited data

How the results depend on the processing

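With a pseudocount of 0.1 or of 0.01, Tlr6 passed 3-fold upward and Tlr1 downward, so that 1 member was higher and 1 lower in KO, where 36.4% and 37.0% of all genes compared passed, respectively. At 2-fold 4 members were higher and 1 was lower, and 2380 genes in all were higher and 2314 lower. When 1 FPKM was required in each library, the numbers past 3-fold over all genes were 429 higher and 447 lower, 11.5% of 7586. Under that filter the median of the other Tlr genes went to 0.64, where Tlr3 no longer passed, and that of the accessory proteins to -0.22, where Lbp no longer passed. Without a filter the adaptor median went to 0. Summing Tlr1 and Tlr6 as 1 gene, an alternative chosen after seeing the data, gave a log2 difference of 0.35. Under the settings that can move a member's own value (pseudocount, scaling and the sum), 42 differences were recomputed. Of these, 40 kept their sign and gave a fold between the libraries within 1.5-fold of the reported fold. The exceptions were Tlr1 and Tlr6 when summed. Scaling moved all differences by 0.04 at most. Below about 20 FPKM, where Tlr1, Tlr4, Tlr6 and Tlr13 lie, large differences between the libraries were common among all genes, and how far fragment number sets them was not tested. No paired analysis was possible because there is a single library per genotype.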

Other observations

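Sensors that do not belong to the Toll-like family were also compared, from lists added after the values of the receptors had been seen. Of 10 genes for cytosolic sensing of nucleic acids and bacterial wall fragments, 8 were higher and 2 lower in KO, with a median of 0.83 against 0.03 over all genes compared. At 2-fold 4 were higher in KO, where 23.1% of all genes compared were, and 0 passed 3-fold, where 27.3% did. Zbp1, a sensor of left-handed nucleic acid, was at 12.3 FPKM in WT against 37.8 in KO. Tmem173, which encodes STING, was at 26.3 and 57.6 FPKM, and Mavs, the adaptor of the RNA helicases, at 7.32 and 18.7. Aim2, a sensor of cytosolic DNA, was at 4.95 FPKM in WT against 12.0 in KO. Ifih1, which encodes the RNA sensor MDA5, was at 20.3 and 39.8 FPKM. Nod1 was lower in KO, at 4.52 and 2.97 FPKM.

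Receptors of the interleukin-1 family also use Myd88. Il1rl1, which encodes the interleukin-33 receptor, was at 13.0 FPKM in WT against 26.4 in KO, whereas Il1rap, the chain it shares with other receptors of the family, was at 7.34 and 2.55 FPKM. Il18rap was at 6.03 FPKM in WT against 1.64 in KO. Il1r1, the interleukin-1 receptor itself, was under 1 FPKM in both libraries, and Il1rn, the secreted antagonist, was at 68.4 and 50.4 FPKM. Of the 5 genes of this list that passed the filter, 1 was higher and 4 were lower in KO, with a median of -0.43. Over all genes compared, 5280 were higher and 5017 lower, with a median of 0.03.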
